A study of Mus musculus with 70 samples.

Results

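The immune cells of control (sham) B16F10 tumors were compared between day 7 and day 3 after sham ablation. The libraries entered by their labels, as the CD45+ libraries of control tumors, and were 14 of the 70 libraries of the series, 4 from day 3 and 10 from day 7. B16F10 is a mouse melanoma line, and it was grown in both flanks of young male and female C57BL/6 mice, 1 flank of which received a sham or real ablation. Tumors were dissociated with collagenase and hyaluronidase, red blood cells were lysed, and CD45+ and CD45- cells were separated by flow sorting before RNA was extracted. The groups set beside the control tumors were CD45+ cells of histotripsy-treated tumors (6 libraries on day 3 and 3 on day 7), CD45+ cells of histotripsy-abscopal tumors, which are the untreated tumors on the opposite flank of treated mice (7 and 4 libraries), and CD45- cells of control tumors (4 and 11 libraries). Histotripsy breaks tissue mechanically with focused ultrasound, and it was aimed at most but not all of a treated tumor, while a control tumor received none. The labels name no drug, antibody or transgene for these groups. The labels do not say which libraries came from the same mouse, which sex a mouse was or when a library was sequenced, mice were assigned without randomization, and the days were deposited as separate tables, so that a batch cannot be told apart from the day.

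CD45, encoded by Ptprc, is carried by nearly all white blood cells, so a CD45+ sort of a melanoma collects T cells, NK cells, B cells, neutrophils, monocytes, macrophages and dendritic cells together. Neutrophils and monocytes enter a growing tumor from the blood, monocytes can become macrophages there, and dendritic cells carry tumor antigen to T cells. Sham tumors went on growing between the days, so the comparison gives the change in immune cell RNA with time in tumors that were not ablated. RNA was sequenced by QuantSeq, which reads the poly(A) end of a transcript and tags each molecule, and the deposited values are counts of molecules per gene. Levels are given as CPM, the counts of a gene scaled to a common library total, and in bulk samples such as these fewer cells of a type and less RNA per cell cannot be told apart.

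The total was 887798 to 2448335 counts per library. Day 3 libraries had a median of 1671305.5 counts and day 7 libraries a median of 1907539 counts. Mitochondrial genes took 5.68% to 7.43% of the counts on day 3 and 5.56% to 9.77% on day 7, and CT010467.1, an rRNA, 6.99% to 9.44% and 6.78% to 10.5%. Ptprc was present at 650.6 to 1252 CPM in the 14 libraries, while it had between 0 and 1 count in each of the 15 CD45- control libraries. Xist, which is transcribed in female cells, was at 439.6 to 914.6 CPM in all 14 libraries, and the summed level of 4 genes of the Y chromosome (Ddx3y, Eif2s3y, Kdm5d and Uty) did not pass 7.58 CPM in any.

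The libraries of the days overlapped in a principal component analysis of the 500 most variable genes. The first component (PC1) carried 26.8% of the variance and the second (PC2) 14.7%. The day 3 replicates 1 to 4 had PC1 scores of -24.1, -11.7, 1.83 and 6.78, and 8 of the 10 day 7 libraries lay within that range. Day 7 replicates 9 and 10 lay beyond it, at 17.7 and 16.5. Day 7 replicate 8 stood apart on PC2 (-23.1). A pseudo-F of 1.51, which sets squared distances between the days against those within a day, was at least matched by 78 of 1001 possible divisions into 4 and 10 libraries (one-sided exact permutation test, p = 0.0779). Among the 20 genes that weighed most toward replicates 9 and 10 were 6 of the neutrophil list and 3 of the inflammatory list, and Cxcl2, a chemokine that attracts neutrophils, had the largest weight. Because replicates 9 and 10 stand apart, list medians that moved by more than 1.5-fold without them are also given without them.

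**Figure D1:**
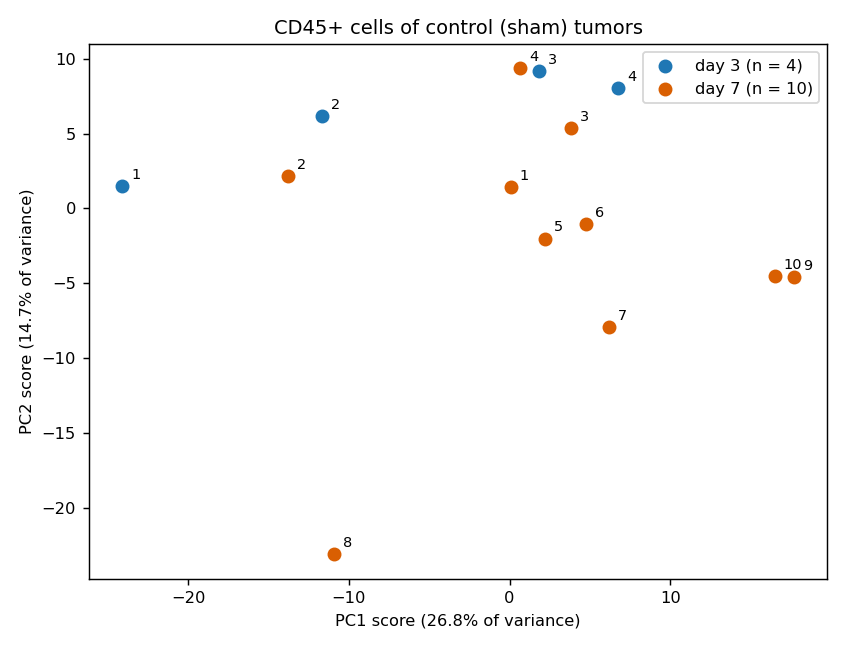
Scores of the 14 CD45+ control libraries on the first and second principal components (axes in score units, with the percent of variance), blue for day 3 and orange for day 7, with the replicate number beside each point. The days overlap on PC1, with day 7 replicates 9 and 10 at 17.7 and 16.5 and day 3 replicate 1 at -24.1.

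Gene by gene, no difference between day 7 and day 3 passed the threshold. Of 10411 genes tested with edgeR's quasi-likelihood test, 0 (0.0%) had an adjusted p under 0.05, while 689 (6.62%) had an unadjusted p under 0.05, 434 higher and 255 lower on day 7. Limma-voom called 0 genes, DESeq2 called 4, and edgeR without a filter on low counts called 43. Leaving out 1 library at a time gave 0 to 1 called genes. The 95% interval of the log2 fold change lay within a change of 2-fold in either direction for 9183 genes (88.2%), and its median half-width was 0.40 on the log2 scale. In 29 genes (0.279%), the levels of the days did not overlap, 15 (0.144%) higher and 14 (0.134%) lower on day 7. Of the 29 genes fixed for naming, 27 had enough counts to be tested, 0 were called, 5 had an unadjusted p under 0.05, and 17 had an interval within 2-fold.

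**Figure D2:**
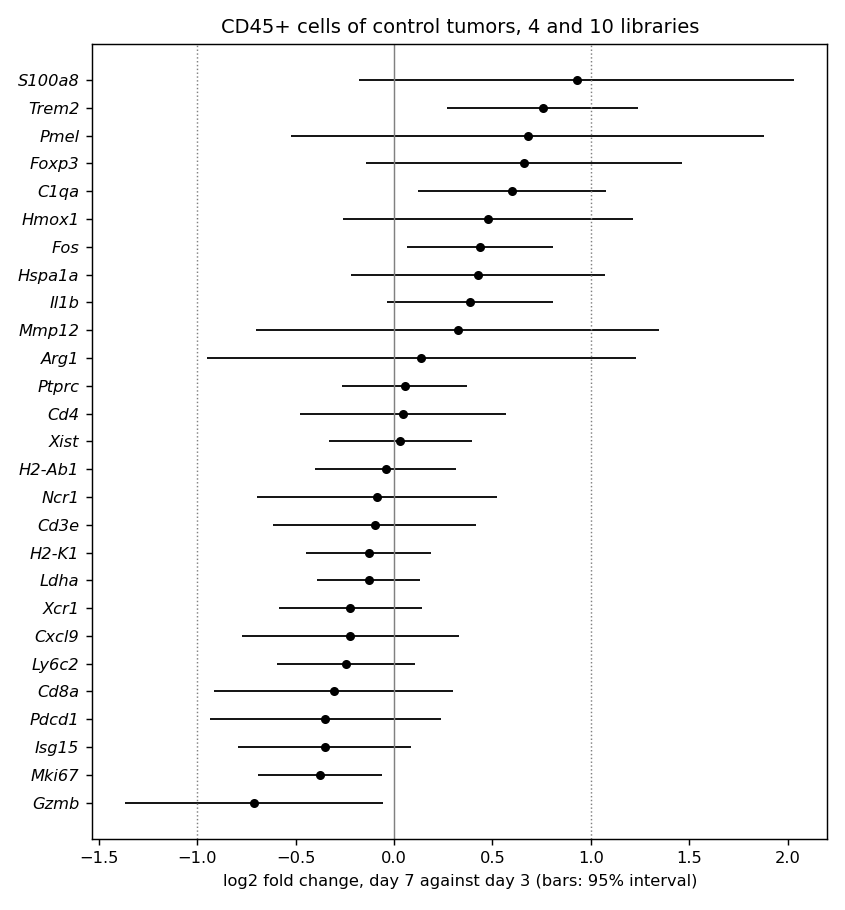
Log2 fold change of the 27 tested fixed genes between day 7 and day 3 in CD45+ control libraries (points) with 95% intervals (bars), and dotted lines at a 2-fold change. Of these genes, 5 have an interval that leaves out 0 before adjustment (Trem2, C1qa, Fos, Mki67 and Gzmb), and S100a8, Pmel, Mmp12 and Arg1 have the widest intervals.

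No gene of the T cell lists passed the test. The list of T cell receptor chains and coreceptors summed to 3549, 3752, 4655 and 3679 CPM in day 3 replicates 1 to 4, and to between 1867 and 4864 CPM (median 3478) in the 10 day 7 libraries. The groups overlapped, with 5 day 7 libraries below the day 3 range and 1 above it. Replicates 9 and 10, at 1867 and 2039 CPM, were the lowest. Of its 20 members, 20 were tested, 0 were called and 18 had a log2 fold change below 0. Their median was -0.14, against -0.0084 over all genes tested and -0.0081 for the list without replicates 9 and 10. Cd3e, a chain of the T cell receptor complex, had 121.3, 112.5, 196.2 and 137.2 CPM on day 3 and 63.54 to 203.5 CPM (median 128.8) on day 7, a log2 fold change of -0.10 (95% interval -0.61 to 0.42). Cd8a, the coreceptor of cytotoxic T cells, had 181.9, 237.1, 404.2 and 315.3 CPM on day 3 and 116.6 to 381.5 CPM (median 214.8) on day 7, a log2 fold change of -0.31 (-0.91 to 0.30). Cd4, the coreceptor of helper T cells, had 13.08 to 25.02 CPM on day 3 and 9.27 to 26.62 CPM on day 7, a log2 fold change of 0.05 (-0.48 to 0.57). The list of naive and memory T cell genes had 10 tested members, 0 called and a median of 0.10, and all 10 had an interval within 2-fold.

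Genes of cytotoxic and NK cells also overlapped between the days. Their list summed to 3234, 4171, 4591 and 4033 CPM on day 3 and to 1926 to 4825 CPM (median 3647) on day 7, again with replicates 9 and 10 lowest. Of 20 tested members 0 were called, 1 was lower at an unadjusted p under 0.05, and the median log2 fold change was -0.16, or -0.02 without replicates 9 and 10. Gzmb, the protease that cytotoxic cells deliver into their targets, had 101.1, 141.1, 313.3 and 362.3 CPM on day 3 and 73.21 to 184.3 CPM (median 148.2) on day 7. Replicates 3 and 4 of day 3 lay above each day 7 library, replicates 1 and 2 lay among them, and the log2 fold change of -0.71 (95% interval -1.36 to -0.05) had an adjusted p of 0.751. Prf1, which encodes the pore-forming protein perforin and was chosen after its values were seen, had 216.6 to 553.4 CPM on day 3 and 139.7 to 525.6 CPM on day 7. Ncr1, a receptor of NK cells, had 41.39, 49.62, 28.78 and 25.73 CPM on day 3 and 14.56 to 47.24 CPM on day 7, a log2 fold change of -0.09 (-0.70 to 0.52).

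The checkpoint and regulatory T cell list had 16 tested members of 18, 0 called and a median log2 fold change of -0.13, or -0.04 without replicates 9 and 10. Pdcd1, the gene of the checkpoint receptor PD-1, had 64.48, 78.84, 146.5 and 122.9 CPM on day 3 and 40.6 to 137.5 CPM (median 76.45) on day 7, a log2 fold change of -0.35 (-0.94 to 0.24). Foxp3, which defines regulatory T cells, was low, with 7.7, 7.17, 9.16 and 4.08 CPM on day 3 and 5.67 to 28.16 CPM (median 7.98) on day 7. Its 4 highest day 7 libraries, replicates 7 to 10, lay above each day 3 library, and its log2 fold change was 0.66 (-0.14 to 1.46, adjusted p = 0.793).

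B cell genes varied more among the day 7 libraries than among the day 3 libraries. The B cell and plasma cell list summed to 847.9, 749.8, 682.9 and 758.5 CPM on day 3 and to 547.4 to 2048 CPM (median 1111) on day 7. Of the 10 day 7 libraries, 6 lay above the day 3 range and 2 below it, with replicates 9 and 10 highest. Of its 14 tested members (of 16), 14 had a log2 fold change above 0, 0 were called and 1 had an unadjusted p under 0.05. Their median was 0.71, and 0.35 without replicates 9 and 10. Ms4a1, the gene of CD20, had 10.59, 10.48, 19.62 and 39.21 CPM on day 3 and 14.08 to 80.09 CPM on day 7, a log2 fold change of 0.70 (95% interval -0.32 to 1.73), and Ighm, the constant region of IgM, had 195.7 to 232.8 CPM on day 3 and 146.2 to 619.5 CPM on day 7, a log2 fold change of 0.54 (-0.30 to 1.37). Without replicates 9 and 10 these changes were 0.30 and 0.17. Both genes were chosen after their values were seen. Cd79a, a signaling chain of the B cell receptor, had at most 2.65 CPM in any of the 14 libraries and was not tested.

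Neutrophil genes spread widely within each day. Neutrophils are short-lived phagocytes that arrive from the blood, and their list summed to 738.2, 1349, 3221 and 3671 CPM in day 3 replicates 1 to 4. It summed to 2187 to 7052 CPM (median 3737) on day 7, with 5 libraries above and 0 below the day 3 range, and with replicates 9 and 10 at 6725 and 7052 CPM. Of 18 members, 15 were tested, all 15 had a log2 fold change above 0, 3 had an unadjusted p under 0.05 and 0 were called. The median of 0.93 was the second largest among the lists, and was 0.67 without replicates 9 and 10. Only 2 of the 15 had an interval within 2-fold. S100a8, a subunit of the calprotectin complex of neutrophils and monocytes, had 193.5, 463.7, 1334 and 1536 CPM on day 3 and 839 to 2763 CPM (median 1494) on day 7. The groups overlapped through day 3 replicates 3 and 4, and the log2 fold change was 0.93 (95% interval -0.18 to 2.03, adjusted p = 0.776). The following genes were chosen after their values were seen. S100a9, the partner of S100a8, had a log2 fold change of 1.04 (-0.07 to 2.15), Csf3r, the receptor of the growth factor G-CSF, 0.97 (0.09 to 1.85, adjusted p = 0.751), and Cxcr2, the receptor through which neutrophils follow chemokines, 0.85 (-0.15 to 1.85). The erythroid list, described below with the other cell types, was likewise lowest in day 3 replicates 1 and 2, and its part in these values was not tested.

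**Figure D3:**
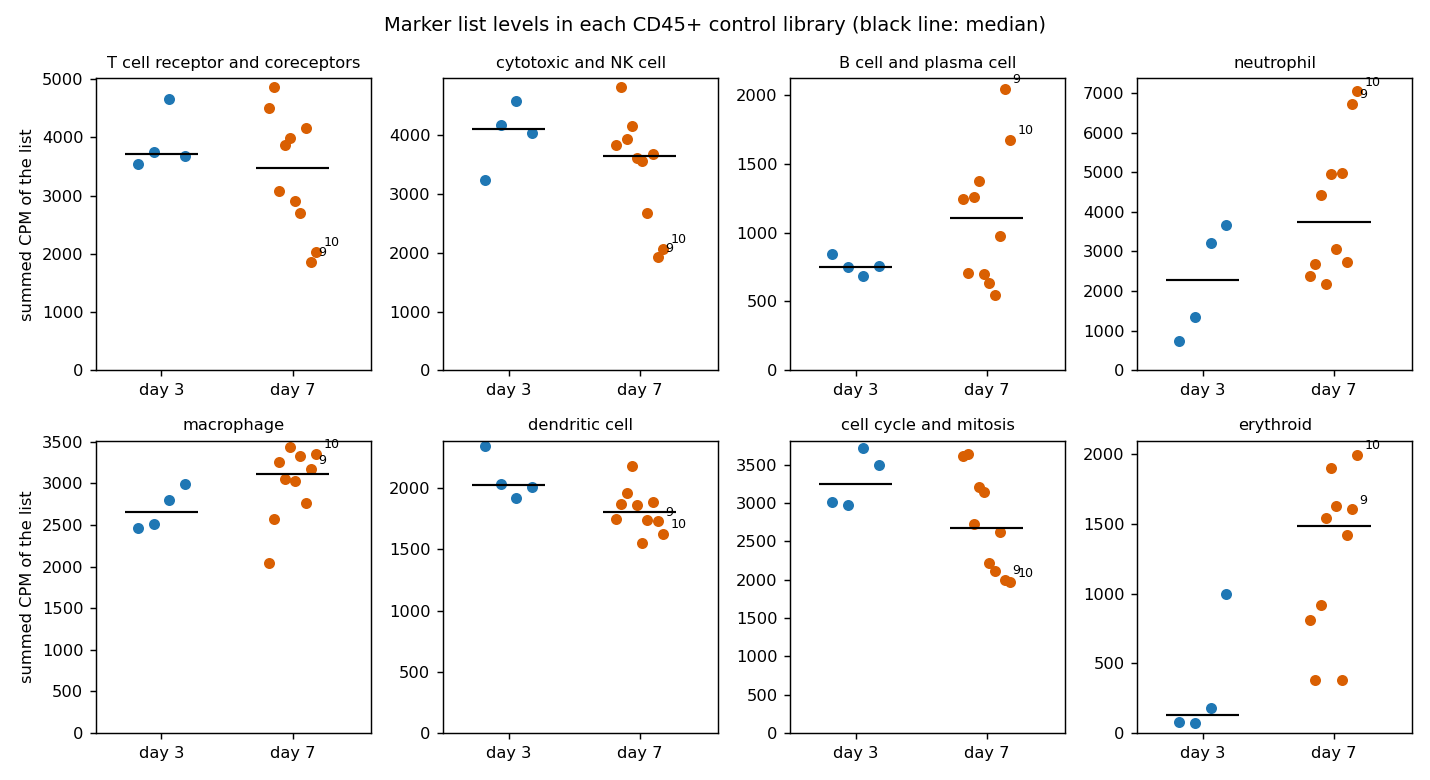
Summed CPM of 8 marker lists (vertical axes from 0) in each CD45+ control library, blue for day 3 and orange for day 7, with the median as a black line and day 7 replicates 9 and 10 numbered. Neutrophil sums run from 738.2 to 3671 CPM on day 3 and from 2187 to 7052 CPM on day 7, replicates 9 and 10 are highest for neutrophil and B cell genes and lowest for T cell, cytotoxic and cell cycle genes, and the days overlap in all 8 panels.

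Inflammatory cytokine and chemokine genes followed the same libraries. Their list summed to 20660, 22650, 26870 and 33540 CPM on day 3 and to 19660 to 45370 CPM (median 27910) on day 7, with 2 libraries above and 2 below the day 3 range. Replicates 9 and 10 were the 2 above it, at 43440 and 45370 CPM. Of 26 tested members of 27, 0 were called, and the median log2 fold change was 0.17, or 0.04 without these libraries. Il1b, an inflammatory cytokine of myeloid cells, had 3587, 2756, 3312 and 3660 CPM on day 3 and 2881 to 6148 CPM (median 3827) on day 7, a log2 fold change of 0.39 (-0.03 to 0.81). Cxcl2, chosen after its values were seen, had 1577, 1930, 4027 and 5074 CPM on day 3 and 1972 to 10810 CPM on day 7, a log2 fold change of 0.77 (-0.28 to 1.82), or 0.38 without replicates 9 and 10.

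No macrophage gene passed the test, although most had a fold change above 0. Macrophages take up dying cells and debris and are the main source of complement C1q in tissue. Their list summed to 2462, 2509, 2796 and 2995 CPM on day 3 and to 2047 to 3438 CPM (median 3115) on day 7, with 7 libraries above and 1 below the day 3 range. Of 16 tested members of 18, 14 had a log2 fold change above 0, 5 had an unadjusted p under 0.05, all higher on day 7, and 0 were called, with a median of 0.25, or 0.16 without replicates 9 and 10. C1qa, a chain of complement C1q, had 173.2, 127.4, 143.9 and 137.2 CPM on day 3 and 104.3 to 361.6 CPM (median 213.7) on day 7. Of the 10 day 7 libraries 6 lay above the day 3 range and replicate 1 lay below it, and the log2 fold change was 0.60 (95% interval 0.12 to 1.07, adjusted p = 0.751). Trem2, a lipid receptor of macrophages, had 22.14, 16.54, 20.28 and 19.61 CPM on day 3 and 13.04 to 41.91 CPM (median 33.36) on day 7. Here 9 libraries lay above each day 3 library and replicate 1 below, and the log2 fold change was 0.76 (0.27 to 1.24, adjusted p = 0.646).

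Other macrophage genes, chosen after their values were seen, had like values. The log2 fold change was 0.47 (0.04 to 0.90) for C1qb, 0.75 (0.22 to 1.28) for C1qc, 0.62 (0.17 to 1.07) for Apoe, which carries lipid, and 0.86 (0.39 to 1.32, adjusted p = 0.636) for Ms4a7, a membrane protein of macrophages. C1qa, C1qc, Apoe and Ms4a7 passed the threshold when genes with low counts were kept in the test, with adjusted p of 0.0371, 0.00761, 0.0163 and 0.0153, and in none of the other settings, in which their adjusted p reached 1.0. The neighbouring list of lipid-associated and lysosomal macrophage genes had 19 tested members, 0 called and a median of 0.26, with 17 above 0. The median was 0.14 without replicates 9 and 10, 0.12 without day 3 replicate 2 and 0.50 without day 3 replicate 4. The list of alternatively activated macrophage genes had 11 tested members, 0 called and a median of 0.14, which was 0.0722 without replicates 9 and 10 and between -0.0418 (without day 3 replicate 2) and 0.24 (without day 7 replicate 1) with 1 library left out. Arg1, which consumes arginine in such cells, had 215.6, 279, 773.2 and 1302 CPM on day 3 and 295.9 to 1099 CPM on day 7, so that the 10 day 7 libraries all lay within the day 3 range, and its log2 fold change was 0.14 (-0.95 to 1.23).

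**Figure D4:**
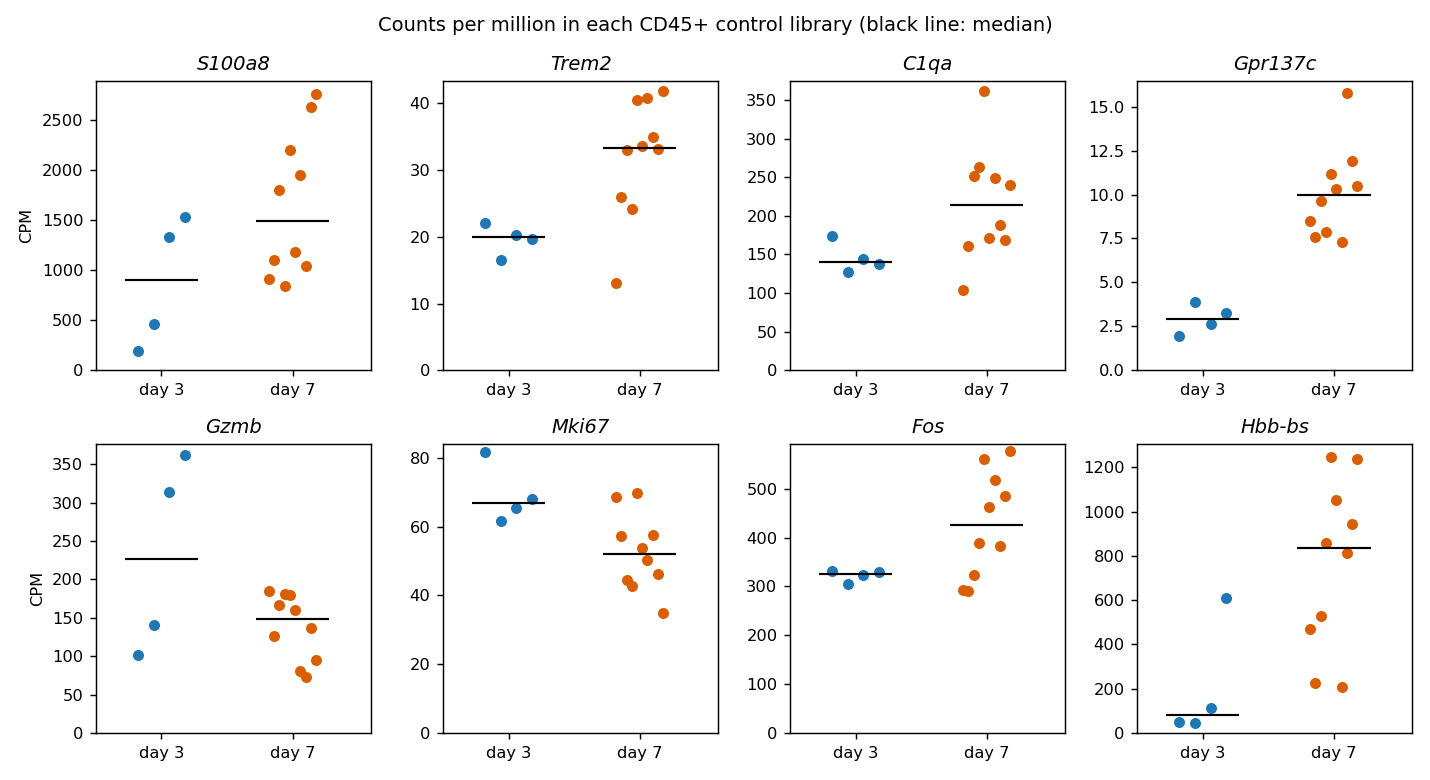
CPM of 8 genes (vertical axes from 0) in each CD45+ control library, blue for day 3 and orange for day 7, with the median as a black line. Gpr137c is the 1 gene of the 8 whose days do not overlap, at 1.92 to 3.86 CPM and 7.28 to 15.77 CPM, and Trem2 has 9 of 10 day 7 libraries above 22.14 CPM, the highest day 3 value.

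No gene of the monocyte, dendritic cell and antigen presentation lists passed the test, and the list medians lay between -0.15 and 0.04. The monocyte list had 14 tested members, 0 called, a median log2 fold change of 0.04 and 13 members with an interval within 2-fold. Ly6c2, a surface marker of inflammatory monocytes, had 590.9, 706.2, 586.7 and 523.2 CPM on day 3 and 346.2 to 691.1 CPM (median 467.5) on day 7, a log2 fold change of -0.25 (-0.60 to 0.10), with 6 day 7 libraries below the day 3 range. The dendritic cell list summed to 2345, 2033, 1917 and 2012 CPM on day 3 and to 1555 to 2182 CPM (median 1803) on day 7, with 8 libraries below the day 3 range and 0 above. Of its 20 members, 20 were tested, 0 were called, 2 were lower at an unadjusted p under 0.05 and the median was -0.15, or -0.05 without day 3 replicate 1. Xcr1, the chemokine receptor of the dendritic cells that present antigen to CD8 T cells, had 47.38 to 60.83 CPM on day 3 and 32.57 to 70.16 CPM on day 7, a log2 fold change of -0.22 (-0.58 to 0.14). Of its day 7 libraries 7 lay below and 3 above the day 3 range.

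For class II presentation, which shows peptides to CD4 T cells, 13 members were tested, 0 were called and the median was -0.04. It was 0.21 without day 3 replicate 1, in which H2-Ab1, a class II chain, was highest at 2846 CPM. H2-Ab1 had 1335 to 2846 CPM on day 3 and 1412 to 2200 CPM on day 7, a log2 fold change of -0.04 (-0.40 to 0.32). For class I presentation, which shows peptides to CD8 T cells, 18 members were tested, 0 were called, 15 were below 0 and the median was -0.14. The summed class I list lay below the day 3 range in 6 day 7 libraries and above it in 1. H2-K1, a class I heavy chain, had 1834 to 2425 CPM on day 3 and 1372 to 2484 CPM on day 7, a log2 fold change of -0.13 (-0.45 to 0.19). The type I interferon list, made of genes that cells turn on in response to type I interferon, had 28 tested members and 0 called. Its median was -0.05, or 0.03 without replicates 9 and 10. Isg15, one of its most strongly induced genes, had 379.2, 538.1, 346 and 388 CPM on day 3 and 163.3 to 436.2 CPM (median 348.1) on day 7, a log2 fold change of -0.35 (-0.79 to 0.09). The interferon gamma list had 20 tested members, 0 called and a median of -0.06, or -0.01 without these libraries. Cxcl9, a chemokine that interferon gamma induces and that attracts T cells, had 392.7, 318.1, 202.1 and 173.6 CPM on day 3 and 115.2 to 328.7 CPM on day 7, a log2 fold change of -0.22 (-0.77 to 0.33).

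No gene of the cell cycle list passed the test. The list summed to 3011, 2969, 3720 and 3494 CPM on day 3 and to 1967 to 3636 CPM (median 2677) on day 7, with 6 libraries below the day 3 range and 0 above, replicates 9 and 10 being the lowest. Of 32 tested members of 34, 30 had a log2 fold change below 0, 1 had an unadjusted p under 0.05 and 0 were called. Their median was -0.30, and -0.21 without replicates 9 and 10, and all 32 had an interval within 2-fold. Mki67, present in dividing cells, had 81.81, 61.75, 65.41 and 68.21 CPM on day 3 and 34.92 to 69.73 CPM (median 52.09) on day 7. Of the day 7 libraries 8 lay below the day 3 range and 2 within it, and the log2 fold change was -0.38 (-0.69 to -0.06, adjusted p = 0.751).

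Immediate early genes, which cells switch on within minutes of a stimulus and which also respond to tissue dissociation, summed to 10450 to 12990 CPM on day 3 and 11130 to 19070 CPM (median 13240) on day 7. Of 22 tested members 6 were higher at an unadjusted p under 0.05, 0 were called and the median was 0.21, or 0.11 without replicates 9 and 10. Fos, a subunit of the transcription factor AP-1, had 332, 306, 323.1 and 329.6 CPM on day 3 and 291.2 to 578 CPM (median 426.1) on day 7, a log2 fold change of 0.44 (0.06 to 0.81, adjusted p = 0.751). Its day 3 libraries lay close together, with 7 day 7 libraries above them and 2 below. The heat shock list had 20 tested members, 0 called and a median of 0.04, or -0.05 without replicates 9 and 10. Hspa1a, an inducible chaperone whose near-identical copy Hspa1b can share its reads, had 633.2 to 1175 CPM on day 3 and 673.4 to 1920 CPM on day 7, a log2 fold change of 0.43 (-0.22 to 1.07), or 0.13 without replicates 9 and 10.

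The hypoxia and glycolysis list had 29 tested members, 6 higher at an unadjusted p under 0.05, 0 called and a median of 0.11, or -0.02 without replicates 9 and 10. Ldha, which makes lactate, had 1533 to 2124 CPM on day 3 and 1418 to 1977 CPM on day 7, a log2 fold change of -0.13 (-0.39 to 0.13). For antioxidant, heme and iron genes 16 of 18 members were tested, 0 were called and the median was 0.31, or 0.17 without these libraries. Hmox1, which breaks down heme, had 438.9, 484.6, 1204 and 1282 CPM on day 3 and 591.2 to 1697 CPM (median 1239) on day 7, a log2 fold change of 0.48 (-0.26 to 1.21). The matrix protease list had 17 tested members of 20, 0 called and a median of 0.12, or 0.47 without day 3 replicate 4. Mmp12, an elastase of macrophages, had 40.42, 35.28, 158.3 and 198.9 CPM on day 3 and 61.71 to 214.8 CPM on day 7, a log2 fold change of 0.32 (-0.70 to 1.35). In Hmox1, Mmp12 and Arg1, as in the neutrophil genes, day 3 replicates 1 and 2 were low and replicates 3 and 4 high.

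Among the cell types that a CD45+ sort should leave out, red cell genes differed most between the days. The erythroid list summed to 76.03, 71.12, 176.6 and 994.6 CPM on day 3 and to 381.1 to 1998 CPM (median 1483) on day 7, and 6 of 10 day 7 libraries lay above the day 3 range. Of 8 members, 4 were tested, all globin genes, and 4 were higher at an unadjusted p under 0.05, 0 of them called, with a median log2 fold change of 1.90. Without day 3 replicate 4 the median was 3.61. Hbb-bs, a beta globin gene, had 43 to 610.2 CPM on day 3 and 207.7 to 1247 CPM on day 7, a log2 fold change of 1.90 (0.24 to 3.56). The red cell genes Alas2 and Slc4a1 had 0 CPM in all 4 day 3 libraries and at most 3.38 CPM in any day 7 library. Hbb-bs was chosen after its values were seen.

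Melanocyte genes summed to 110.3 to 284.3 CPM on day 3 and 121.3 to 403.6 CPM on day 7, with 7 of 12 members tested, 0 called and a median of 0.10, or 0.77 without day 3 replicate 4. Dct, an enzyme of pigment synthesis, had the most counts of the list, at 57.75 to 157.7 and 66.05 to 248.9 CPM. Pmel, a pigment cell protein, had 5.78, 2.76, 8.5 and 21.65 CPM on day 3 and 3.25 to 30.49 CPM on day 7, a log2 fold change of 0.68 (-0.52 to 1.88). Of the fibroblast list Thy1, which T cells also carry, supplied most of the counts, and Col1a1, the main collagen of fibroblasts, did not pass 5.6 CPM in any library and was not tested. Of the endothelial genes Cldn5, of the keratinocyte genes Krt5, Krt14 and Krt15, and of the muscle genes Tnnc2, Pvalb and Mb had 0 counts in all 14 libraries. Other members of these lists had counts in every library. On day 7 Pecam1 had 33.63 to 64.2 CPM, Kdr 18.51 to 34.92, Sfn 12.56 to 23.39, Perp 2.8 to 15.16 and Tnni2 4.51 to 15.89. Which cells these counts came from was not tested. Of the mast cell, basophil and eosinophil list 0 of 12 members had enough counts to be tested. Its sum was 7.35 to 9.62 CPM on day 3 and 6.46 to 20.95 CPM on day 7, with 9 day 7 libraries above the day 3 range.

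A few genes passed the threshold in other settings and were named for that after their values were seen. Gpr137c, a membrane protein gene (GRCm38, chr14:45219717-45282725), was closest to the threshold, with an adjusted p of 0.0609. It had 1.92, 3.86, 2.62 and 3.27 CPM on day 3 and 7.28 to 15.77 CPM (median 9.97) on day 7, resting on 2 to 8 counts and 7 to 26 counts per library. The days did not overlap, and the log2 fold change was 1.70 (SE 0.29). Its adjusted p was 0.0164 with DESeq2, 0.0329 with Xist as a covariate and 0.00462 without a filter on low counts, and reached 0.857 among the other settings. Mpp7, a scaffold protein of cell junctions, had 50.05, 55.68, 26.82 and 42.07 CPM on day 3 and 17.94 to 30.73 CPM (median 22.5) on day 7, a log2 fold change of -0.90 (-1.27 to -0.53, adjusted p = 0.217). It passed with DESeq2, without a filter and without day 3 replicate 3, and its adjusted p otherwise reached 1.0.

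Ighg2c, the constant region of an IgG class, had 1.92, 1.65, 1.31 and 6.94 CPM on day 3 and 2.24 to 166.8 CPM (median 59.02) on day 7, with 9 of 10 libraries above the day 3 range. Its log2 fold change of 4.33 (1.38 to 7.29) had an adjusted p of 0.692 with edgeR and 0.0144 with DESeq2, and up to 1.0 over the other settings. Immunoglobulin constant regions resemble each other, and how reads were split between them is uncertain. Gm25099, an snRNA gene (chr4:117189942-117190057), had 77.96, 157.1, 115.1 and 114 CPM on day 3 and 144.9 to 221.7 CPM on day 7, a log2 fold change of 0.72 (0.40 to 1.04). Its adjusted p was 0.347 with edgeR, 0.0164 with DESeq2 and 0.00462 without a filter on low counts, and up to 1.0 over the other settings. The next 3 genes were chosen after their values were seen from the 29 without overlap between the days. Ybx1, which binds RNA and DNA, had 384.8 to 484.1 CPM on day 3 and 294 to 384.7 CPM on day 7, a log2 fold change of -0.31 (adjusted p = 0.73). Bhlhe40, a transcription factor of activated immune cells, had 463.9 to 594.9 CPM and 394.5 to 460.1 CPM, a log2 fold change of -0.29 (adjusted p = 0.751). Dedd2, a death effector domain gene, had 34.01 to 38.5 CPM and 42.66 to 86.2 CPM, a log2 fold change of 0.81 (adjusted p = 0.347).

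For part of the genes, the change over days in control tumors differed from that in histotripsy-treated tumors. In treated tumors on their own 429 of 11249 genes (3.81%) passed the threshold, in abscopal tumors 89 (0.791%). In a fit of all 34 CD45+ libraries, the interaction of day and treatment passed the threshold in 257 of 11249 genes (2.28%), 233 (2.07%) with a lower and 24 (0.213%) with a higher change over days in treated than in control tumors. Scaled by library totals alone, it passed in 213 genes, 141 lower and 72 higher, with a shift of 0.22 in the median of all genes. Over these 233 genes the median change between the days was 0.50 on the log2 scale in control tumors and -1.41 in treated tumors, and 224 of them had a value above 0 in control tumors, although 0 were called there. The rule that chose these genes used these changes, so their medians are a description. This count depended on single libraries. It was 20 without treated day 7 replicate 1, 34 without treated day 7 replicate 3, 521 without treated day 3 replicate 5, 151 and 163 without treated day 3 replicates 3 and 6, and 154, 135, 125 and 157 without control day 3 replicates 1, 2, 3 and 4. It was 124 without both control day 7 replicates 9 and 10.

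Of these genes, with 2.07% of all genes lower, 3 of 18 tested members of the neutrophil list, 4 of 22 of the immediate early list, 3 of 27 of the inflammatory list and 2 of 18 of the matrix list were lower. Mmp9, the gelatinase of neutrophil granules, had 3.85, 10.48, 25.51 and 32.27 CPM in control tumors on day 3 and 10.83 to 86.05 CPM (median 29.92) on day 7, but 49.95 to 295.4 CPM in treated tumors on day 3 and 12.04 to 37.84 CPM on day 7. It fell in treated tumors (log2 fold change -2.56, adjusted p = 0.0326), its change in control tumors was 1.17 (95% interval -0.03 to 2.37, adjusted p = 0.968), and the difference was -3.73 (SE 0.90, adjusted p = 0.0258). Hdc, which makes histamine, had a difference of -2.95 (SE 0.68, adjusted p = 0.0195), and Il1r2, the decoy receptor of interleukin 1, one of -2.07 (SE 0.46, adjusted p = 0.0173). The summed neutrophil list lay at 2364 to 31810 CPM in treated tumors on day 3 and 1246 to 4755 CPM on day 7.

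Il23a, a subunit of interleukin 23, had 2.89, 8.82, 19.62 and 35.53 CPM in control tumors on day 3 and 8.66 to 136.6 CPM (median 40.56) on day 7, and its change differed by -4.26 (SE 1.13, adjusted p = 0.042). Nlrp3, the sensor of an inflammasome, had a difference of -2.45 (SE 0.65, adjusted p = 0.0393), and the chemokine Ccl3 of -1.77 (SE 0.48, adjusted p = 0.0425). Egr3, an immediate early transcription factor, had 15.4, 21.5, 31.4 and 28.18 CPM in control tumors on day 3 and 20.57 to 60.24 CPM (median 37.99) on day 7, with 9 of 10 above the day 3 range. In treated tumors it had 38.27 to 182.2 CPM on day 3 and 25.65 to 43.19 CPM on day 7. Its difference of -2.58 (SE 0.50, adjusted p = 0.00635) was called with each library left out in turn and in every other setting tried. The immediate early genes Ier3 and Egr1 had differences of -2.0 and -1.65 (adjusted p = 0.0109 and 0.0432).

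Single members of other lists also had a lower change in treated tumors. They were 1 of 29 tested in the hypoxia list, 1 of 16 in the antioxidant, heme and iron list and 1 of 2 in the keratinocyte list. Over all genes the share was 2.07%, so these are values of single genes and not a result about their lists. The difference was -1.37 for Slc16a3, a lactate exporter of the hypoxia list, -1.98 for Hp, which binds free hemoglobin, -1.38 for Tgfbr1, a receptor of TGF-beta, and -1.17 for Sfn, a 14-3-3 protein of the keratinocyte list (adjusted p = 0.0425, 0.036, 0.0298 and 0.036). Genes of the dendritic cell list differed in the other direction, 3 of 20 tested, against 24 (0.213%) of all 11249 genes. Siglech, a marker of plasmacytoid dendritic cells, had 39.46, 46.86, 46.44 and 46.56 CPM in control tumors on day 3 and 21.07 to 57.68 CPM (median 36.75) on day 7, against 7.51 to 34.28 CPM and 42.89 to 61.71 CPM in treated tumors, a difference of 1.6 (SE 0.44, adjusted p = 0.0425). Ccr9, a homing receptor that such cells carry, differed by 1.64 (SE 0.42, adjusted p = 0.0294) and Irf8, a transcription factor that dendritic cells need, by 0.71 (SE 0.20, adjusted p = 0.0432). Apart from Egr3, each of these genes lost its call in at least 1 setting, with adjusted p up to 0.197.

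**Figure D5:**
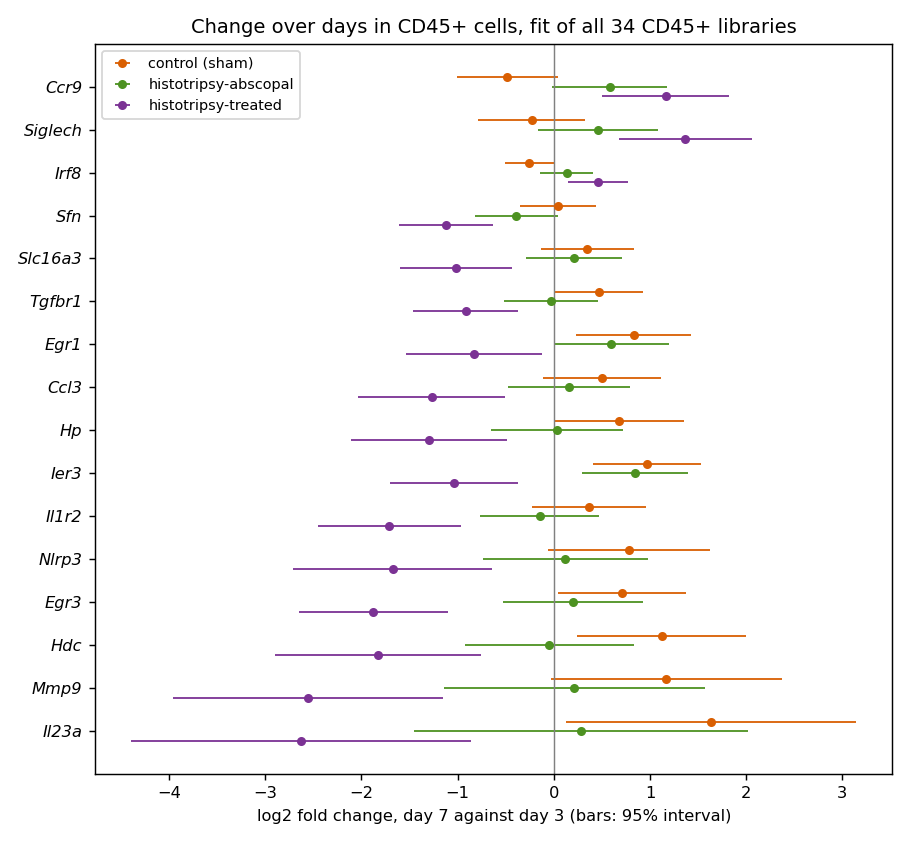
Log2 fold change between day 7 and day 3 (points, with 95% intervals as bars) for the 16 list genes (up to 3 per list) whose change differed between treated and control CD45+ cells, in control, histotripsy-abscopal and histotripsy-treated tumors, from a fit of all 34 CD45+ libraries. Control values lie above 0 for 13 genes and treated values below 0 for the same 13, and the reverse holds for Ccr9, Siglech and Irf8.

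In histotripsy-abscopal tumors the change over days did not differ from that in control tumors for any gene at the threshold. Of 11249 genes 0 (0.0%) were called by edgeR and 1 by DESeq2, and 716 (6.37%) had an unadjusted p under 0.05. The control libraries enter both this comparison and the one with treated tumors. The interval of this difference lay within 2-fold for 6370 genes (56.6%). For Mmp9 the abscopal log2 fold change was 0.21 and its difference from control tumors -0.95 (SE 0.88, adjusted p = 0.913), and for Ccr9 they were 0.58 and 1.06 (SE 0.39, adjusted p = 0.727). Gpr137c came closest to the threshold, with an abscopal log2 fold change of -1.06 (-1.84 to -0.28) and a difference of -2.78 (SE 0.52, adjusted p = 0.0568). The change in CD45+ cells was also set against that in CD45- cells of control tumors. Of 12376 genes 0 (0.0%) were called by edgeR, DESeq2 and limma-voom alike, and 611 (4.94%) had an unadjusted p under 0.05 with edgeR. The interval of this difference lay within 2-fold for 7366 genes (59.5%), and its half-width was over 1 on the log2 scale for 3327. Immune genes absent from CD45- cells, such as Gzmb at 0 CPM in each CD45- control library, could not be called. The lack of calls therefore does not show that the fractions changed alike. In CD45- cells on their own edgeR called 0 genes (0.0%), with 494 at an unadjusted p under 0.05. Gpr137c had the smallest adjusted p here too (0.0825), with a log2 fold change of -0.28 in CD45- cells and a difference of 1.99. Each of these Gpr137c results uses the same CD45+ control libraries, so they are not separate support. On day 3 its mean was 2.92 CPM in CD45+ control libraries. It was 8.075 CPM in abscopal, 6.49 CPM in treated and 7.58 CPM in CD45- control libraries of that day.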

How the data were processed

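Libraries entered by their labels, but this comparison, its genes and its gene lists were chosen with earlier results of these data known. Per the labels and the submitters' processing notes, the authors made QuantSeq libraries, trimmed reads with Trim Galore 0.5.0, aligned them to GRCm38 with STAR 2.6.0, collapsed molecular identifiers and counted them per gene with featureCounts; the strand setting is not given in the sources used here, so overlapping and antisense genes are uncertain. The deposited values are counts, in 1 table per fraction and day with 55487 named lines. The 2 unnamed lines, which equalled 100% of the column totals, were left out, and 120 lines that repeat a symbol left 55367 symbols. The tables were joined by symbol. Of the genes tested, 10240 of 10411 matched an annotation of GRCm38 by symbol.

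Groups were compared with edgeR 4.0.16 (quasi-likelihood test, robust, TMM, filterByExpr with a count minimum of 10) in R 4.3.3, with Benjamini-Hochberg adjustment at 0.05 over all genes tested. Differences of day changes were interaction terms over the 34 CD45+ libraries, or the 29 control libraries of both fractions. Principal components used log10(CPM + 1) scaled per gene. The steps were tested on simulated data. Alternatives were DESeq2 1.42.0, limma-voom (limma 3.58.1), library totals, no filter, libraries of at least 1000000 counts (2 of the 14 had fewer), each library left out, replicates 1 to 4 with and without a block, and covariates. Leaving out both day 7 replicates 9 and 10 was added after seeing the data. Named genes were 29 fixed genes, up to 15 called genes per direction with the largest change, separated CPM values and 10 CPM or more on average in either group (none qualified), and up to 3 called genes per list with the smallest p; other genes are said to be chosen after their values were seen. The labels do not say that libraries came from separate mice, so p-values measure the spread between libraries, and molecules counted give counting precision only. No 2 libraries of a group agreed within sampling noise (smallest chi-square per degree of freedom 2.35 over 51 pairs).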

Additional observations from a re-analysis of the deposited data

Results flagged for a closer look

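The erythroid list summed to 994.6 CPM in CD45+ control day 3 replicate 4, apart from the other day 3 libraries, of which the nearest had 176.6 CPM. The skeletal muscle list summed to 23.83 CPM in CD45+ control day 7 replicate 9, with the nearest library at 16.27 CPM. Its members Tnnc2, Pvalb and Mb had 0 counts in all 14 libraries. Tnni2, the member with the most counts, had 8.58 to 13.08 CPM on day 3 and 4.51 to 15.89 CPM on day 7. Whether muscle RNA gave this value was not tested. Of 118 groups of values tested for such a gap 2 passed, and chance gives about 1 in 20.

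The change from day 3 to day 7 differed between treated and control CD45+ cells in 257 genes (edgeR, interaction term). The differences on the log2 scale, treated minus control, were -2.07 for Il1r2, -2.95 for Hdc, -3.73 for Mmp9, -2.45 for Nlrp3, -4.26 for Il23a, -1.77 for Ccl3, -1.37 for Slc16a3 and -2.58 for Egr3. They were -2.0 for Ier3, -1.65 for Egr1, -1.98 for Hp, -1.38 for Tgfbr1 and -1.17 for Sfn, and were positive for Ccr9 (1.64), Siglech (1.6) and Irf8 (0.71). Treated day 7 tumors had 3 libraries.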

How the results depend on the processing

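The comparison of days gave 0 called genes with edgeR, 4 with DESeq2, 43 without a filter on low counts, 1 with Xist as a covariate, and 0 to 1 with each library left out (1, Mpp7, without day 3 replicate 3). Replicate numbers did not pair the samples (correlations -0.075 to 0.12 for the 4 numbers, and 1 of 4 day 3 libraries closest to its own number), and the fit with the replicate block on replicates 1 to 4 called 1 gene, Fcmr. The separation of the days on principal components had p = 0.0392 to 0.196 (exact permutation test) with each library left out, under 0.05 without day 3 replicate 4 (0.049) or day 7 replicate 2. The difference from treated tumors held 448 genes with DESeq2, 142 with limma-voom, 124 without day 7 replicates 9 and 10, and 20 to 521 with each library left out. The difference from abscopal tumors held 1 gene with DESeq2, 1 with library totals, 3 without a filter and 0 to 1 with each library left out, and that from CD45- cells 0 to 1. The cause of these changes was not tested.

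Of 45 named genes tested, 28 kept their direction in all settings. With replicates 1 to 4 and no block, log2 fold changes turned for Cd3e (0.0188), Cd8a (0.0257), Ncr1 (0.29), Ly6c2 (0.0104), Arg1 (-0.45), H2-Ab1 (0.0158), H2-K1 (0.11), Hspa1a (-0.18), Hmox1 (-0.0632), Mmp12 (-0.12), Xist (-0.30) and Pmel (-0.27). With the block they turned for Cd3e (0.0118), Cd8a (0.0288), Pdcd1 (0.0093), Ncr1 (0.34), Ly6c2 (0.0028), Arg1 (-0.24), H2-Ab1 (0.0829), H2-K1 (0.12), Fos (-0.007), Hspa1a (-0.13), Xist (-0.28) and Pmel (-0.26). With melanocyte genes as a covariate Ncr1 was 0.0086 and H2-Ab1 0.0602, with limma-voom H2-Ab1 was 0.0086, in libraries of at least 1000000 counts Xist was -0.0073, and without replicates 9 and 10 Cd3e was 0.0541 and Ncr1 0.0747. With each library left out, ranges crossing 0 were -0.13 to 0.75 for Arg1, -0.19 to 0.0922 for Cd3e, -0.0692 to 0.23 for Cd4, -0.40 to 0.0188 for Cxcl9, -0.18 to 0.24 for H2-Ab1, -0.25 to 0.12 for Ncr1, -0.0302 to 0.13 for Ptprc and -0.0705 to 0.18 for Xist. With 4 day 3 libraries, genes with wide spread such as those of neutrophils had intervals beyond 2-fold.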

Other observations

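Small nuclear RNA genes, which encode parts of the spliceosome and lack a poly(A) tail, lay mostly higher on day 7. Of 50 tested, 47 had a log2 fold change above 0, 27 had an unadjusted p under 0.05 in that direction, 0 in the other and 0 were called, with a median of 0.70. Over all 10411 genes tested, 434 were higher and 255 lower at an unadjusted p under 0.05, with a median of -0.0084. Their summed level was 1664 to 2419 CPM on day 3 and 1770 to 3820 CPM (median 3155) on day 7, and 8 of 10 day 7 libraries lay above the day 3 range. In the same genes the median change over days was 0.35 in abscopal, 0.19 in treated and 0.03 in CD45- control libraries. Some of these genes were near the floor in CD45- cells. Gm25099 had 1.25 to 2.47 CPM on day 3 and 0.40 to 4.73 CPM on day 7 in CD45- control libraries. Such values cannot show whether a gene changed there. Of 132 long intergenic RNA genes, 13 were higher and 0 lower at an unadjusted p under 0.05, with a median of 0.07, and of 21 small nucleolar RNA genes 3 were higher and 1 lower.

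Fcmr, the receptor for the constant region of IgM on B cells, was chosen after its values were seen. It had 27.91, 23.16, 46.44 and 51.06 CPM on day 3 and 18.83 to 129.1 CPM (median 94.64) on day 7. Of the day 7 libraries 7 lay above the day 3 range and 1 below it, and the log2 fold change was 1.01 (95% interval -0.03 to 2.05, adjusted p = 0.759 with edgeR, at most 0.985 in other settings).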
